A study of Pleurotus ostreatus with 9 samples.

Results

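PLEOSDRAFT_173727 is 1 of 10682 genes in the deposited table of Pleurotus ostreatus, the oyster mushroom, and 1 of 2 that the table annotates as phenylalanine ammonia-lyase. It was chosen by its measured pattern, selected on FPKM values that differ across the 3 groups of cultures, so its own levels and changes are given as a description with no test. FPKM is the number of fragments sequenced from a gene, scaled by its length and by the depth of the library, so that levels can be compared between genes. The table describes the product only as a hypothetical protein, and the enzyme name rests on its enzyme and orthology numbers and on ontology terms for ammonia-lyase activity, breakdown of L-phenylalanine and the cytoplasm. The gene lies on scaffold KL198008.1 at 2287073 to 2289835 on the minus strand, a span of 2763 bp. Its product is named in descriptions of strain PC15, and the genome build is not given in the sources used here.

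Phenylalanine ammonia-lyase removes ammonia from phenylalanine and leaves trans-cinnamic acid. In plants this is the entry to phenylpropanoid and lignin synthesis, while in fungi it is known mainly as a route by which phenylalanine is broken down. The other main route of phenylalanine and tyrosine breakdown runs through aromatic aminotransferases and homogentisate, whose ring is opened by homogentisate dioxygenase. Aromatic amino acids are made by the shikimate pathway, which starts with DAHP synthase. Ammonia is linked to glutamate and glutamine by glutamate dehydrogenase and glutamine synthetase.

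Poly(A) RNA was sequenced from mycelium of strain GEMB-PO1, grown in shaken liquid medium of glucose, yeast extract and peptone and harvested on day 3. In 3 cultures butyl benzyl phthalate (BBP), a phthalate plasticizer, was combined with piperonyl butoxide (PB, at 1 mM), which blocks cytochrome P450 enzymes. In 3 cultures BBP was given alone, and 3 control cultures had no chemical, with no vehicle named. The labels give the BBP dose as 50 mg/L in one place and 200 mg/L in another, so no dose is attached to the values. No group had PB without BBP. A response to PB itself therefore cannot be told apart from an action of PB on the response to BBP. The labels call the 3 libraries of a group biological replicates and do not say how the cultures were separated, so the spread between them may be partly technical.

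Library totals ran from 38098599 to 49161706 counts, and 9399 genes with a mean of at least 1 FPKM were tested. On the first principal component of log2(FPKM + 1), with 61.3% of the variance, the BBP with PB libraries lay between -43.87 and -42.41. The BBP libraries lay at 8.72, -5.70 and 9.59, with replicate 2 nearest to the BBP with PB libraries, and the control libraries between 35.97 and 40.99. The 2 genes found by fruit body words in their descriptions stayed low in every library: an ostreolysin-like gene at 2.10 to 5.53 FPKM and a fruit body hydrophobin at 0.132 to 0.613 FPKM. No description named the vegetative hydrophobins Vmh1, Vmh2 or Vmh3. In bulk RNA, fewer cells of a kind and less RNA per cell cannot be told apart.

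PLEOSDRAFT_173727 was highest with BBP and PB together, intermediate with BBP alone and lowest in control mycelium. Its level was 419.7, 299 and 417 FPKM in the BBP with PB libraries, 47.1, 128 and 44.0 FPKM in the BBP libraries, and 27.8, 26.1 and 24.9 FPKM in the control libraries. The groups did not overlap. The share of all tested genes whose groups do not overlap, in this or another order, is not given here. Lack of overlap in this gene and in genes named below is therefore no mark of likeness. The lowest BBP with PB library was 2.33 times the highest BBP library and 10.8 times the highest control library, and the lowest BBP library was 1.58 times the highest control library. These levels rest on 28597 to 44134 counts per library with BBP and PB, 4707 to 15546 with BBP and 2700 to 3263 in control. The counting error of a single library is therefore between 0.476% and 1.92%, which covers counting alone, as PCR copies of 1 molecule are counted as separate reads.

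The group means were 378 ± 69.0 FPKM with BBP and PB, 73.1 ± 47.8 FPKM with BBP and 26.3 ± 1.44 FPKM in control (SD, n = 3 each). The spread within a group was uneven, with an SD of 18.2% of the mean with BBP and PB, 65.4% with BBP and 5.46% in control. Among the 9399 tested genes the mean ranked 335 with BBP and PB, 1751 with BBP and 4269 in control, counted from the highest. By library the rank was 293, 430 and 307 with BBP and PB, 2623, 1031 and 2734 with BBP, and 3851, 4351 and 4459 in control. The gene thus stood near the middle of the expressed genes in control mycelium and among the more abundant ones with both chemicals.

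**Figure D1:**
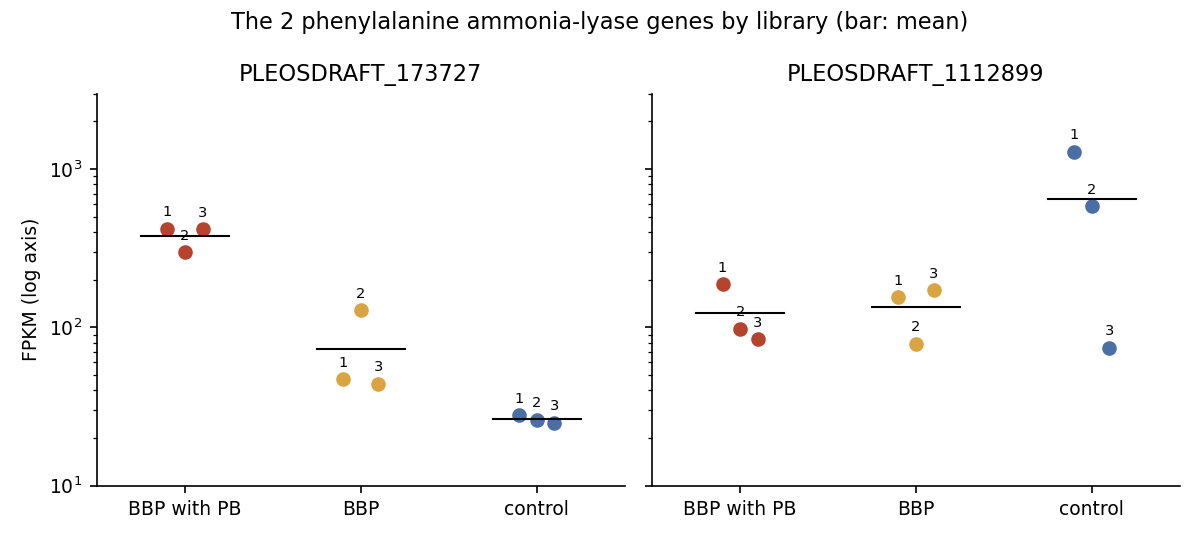
FPKM on a log axis of the 2 phenylalanine ammonia-lyase genes in each library, with points numbered by replicate and a bar at the group mean. PLEOSDRAFT_173727 (left) runs from 24.9 to 419.7 FPKM with no overlap between groups, while PLEOSDRAFT_1112899 (right) runs from 74.4 to 1284 FPKM and its groups overlap.

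As a ratio of group means, the level of PLEOSDRAFT_173727 with BBP and PB was 5.17 times that with BBP and 14.4 times that in control, and the level with BBP was 2.78 times that in control. On the log2 scale of the edgeR fit the changes were 2.48 for BBP with PB against BBP, 4.05 for BBP with PB against control and 1.57 for BBP against control. The fit also scales the libraries by TMM factors, 0.918 to 0.942 with BBP and PB and 0.982 to 1.13 in control. The FPKM values lack this scaling, so a small change in the fit can differ in sign from the FPKM means. Ordered by log2 change over all tested genes, these are the 30th, 22nd and 103rd largest rises. The comparisons share groups and are not independent of each other. Of all tested genes, 9.98% were called higher with BBP and PB than with BBP, 19.9% higher with BBP and PB than in control, and 10.1% higher with BBP than in control, where called means a Benjamini-Hochberg adjusted p under 0.05 in edgeR's quasi-likelihood test.

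BBP replicate 2 set much of the BBP mean of PLEOSDRAFT_173727. Its 128 FPKM was 2.92 times the lowest BBP library, while the other BBP libraries lay at 47.1 and 44.0 FPKM. Without it the ratio of means was 1.73 for BBP against control, with a log2 change of 0.89, and 8.31 for BBP with PB against BBP, with a log2 change of 3.158. The same library lay nearest to the BBP with PB libraries on the first principal component. It was the highest of the 3 BBP libraries in 39.8% of all tested genes and in 55.6% of the 1871 genes called higher with BBP and PB than in control, and the part of this in the level of the gene was not tested.

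PLEOSDRAFT_1112899, the other gene annotated as phenylalanine ammonia-lyase, did not follow the same pattern. It carries the same enzyme number and ontology terms and lies on the same scaffold and strand at 2573306 to 2576175, a span of 2870 bp, with 103 genes of the table between the pair. Its level was 187, 98.1 and 84.0 FPKM with BBP and PB, 155, 79.0 and 171 FPKM with BBP, and 1284, 583 and 74.4 FPKM in control. Control replicates 1 and 2 were above every treated library and control replicate 3 was the lowest of all 9 libraries. Means were 123 ± 55.8 FPKM with BBP and PB, 135 ± 49.4 FPKM with BBP and 647 ± 607 FPKM in control (SD, n = 3 each). How the authors assigned reads that match both genes is not given in the sources used here.

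The log2 change of PLEOSDRAFT_1112899 was -2.25 ± 0.81 (SE) for BBP with PB against control, with an adjusted p of 0.0479 in edgeR's quasi-likelihood test. This call lay close to the threshold. It was lost in 8 of the 9 fits that each left out 1 library, with adjusted p values from 0.051 to 0.227, and remained only without control replicate 3, where the change was -2.78 and the adjusted p 0.00193. Without control replicate 1 the change was -1.14, with the adjusted p at 0.227. In the fits without a BBP library, which belongs to neither compared group, the change stayed at -2.25 (adjusted p = 0.051 to 0.0686). The call was also lost with limma (0.111), the 2 groups alone (0.0745) and the replicate number as a block (0.0701). For BBP against control the change was -2.22 ± 0.81 (adjusted p = 0.0816), and without control replicate 3 it was -2.76 (adjusted p = 0.00544), the lowest of its alternatives. With DESeq2 the change for BBP against control also passed (0.0254). Between BBP with PB and BBP the change was -0.03 ± 0.77 (adjusted p = 0.985). In the control libraries the third principal component, with 9.66% of the variance, ran in the same order as this gene, at 24.96, 4.92 and -27.65, and its part in the result was not tested.

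The balance between the pair therefore differed by library. PLEOSDRAFT_173727 made up 69.2%, 75.3% and 83.2% of their summed FPKM in the BBP with PB libraries, 23.2%, 61.9% and 20.4% in the BBP libraries, and 2.12%, 4.29% and 25.1% in the control libraries. It was the more abundant gene of the pair in every BBP with PB library and in BBP replicate 2, and the less abundant in the other 5 libraries. The sum was 607, 397 and 501 FPKM with BBP and PB, 202.5, 207 and 215 FPKM with BBP, and 1312, 609 and 99.3 FPKM in control. Every BBP with PB library lay above every BBP library in this sum, whereas the control libraries lay on both sides of the treated ones. The sums of the 3 BBP libraries had an SD of 6.52 FPKM, although BBP replicate 2 had the higher PLEOSDRAFT_173727 and the lower PLEOSDRAFT_1112899 level.

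**Figure D2:**
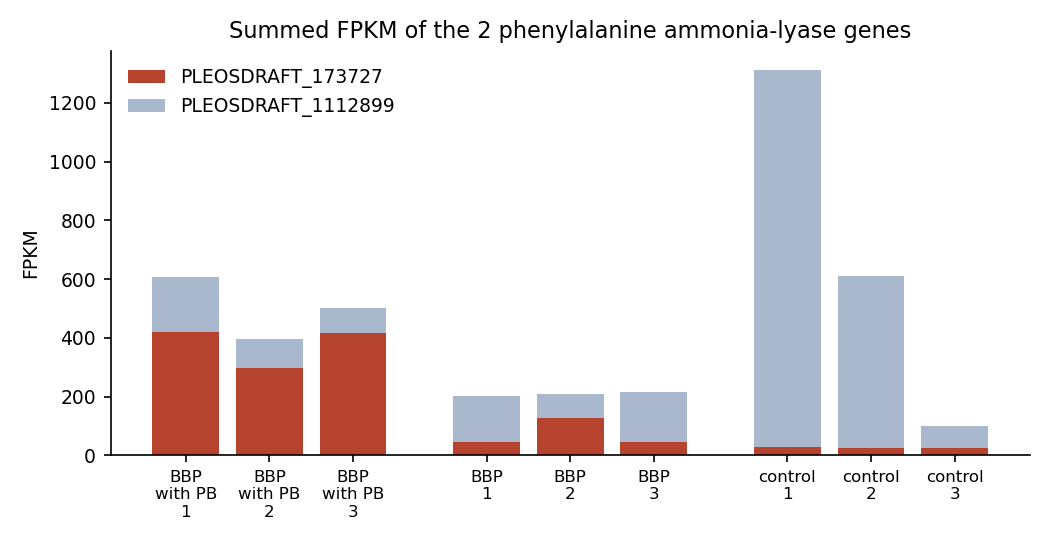
Summed FPKM of the 2 phenylalanine ammonia-lyase genes in each library (linear axis), with PLEOSDRAFT_173727 in red and PLEOSDRAFT_1112899 in grey. The red part is 69.2% to 83.2% of the bar with BBP and PB, 20.4% to 61.9% with BBP and 2.12% to 25.1% in control.

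Genes around phenylalanine were then examined through lists built from enzyme numbers and ontology terms, with 72 other genes of which 70 passed the filter on low values. For BBP with PB against control, 14 of the 70 rose and 19 fell, against 19.9% of all tested genes called higher and 21.2% called lower. For BBP with PB against BBP, 9 rose and 12 fell, against 9.98% higher and 10.5% lower among all tested genes. For BBP against control, 9 rose and 3 fell, against 10.1% higher and 8.33% lower. As shares of the 70 genes, those called higher were 20% and 12.9% in the first pair of these comparisons and 12.9% in the third, and those called lower were 27.1%, 17.1% and 4.29%. The shares called higher were close to the background. The balance of directions depended on the scaling: with each library scaled by its size alone 9 rose and 26 fell for BBP with PB against control (8 and 24 with limma on log2(FPKM + 1)), and 4 rose and 4 fell for BBP against control (4 and 3 with limma). The 12 calls for BBP against control were 6 without control replicate 2 or without BBP replicate 3, and 7 without BBP with PB replicate 2 or 3. The 21 calls for BBP with PB against BBP were 13 without BBP replicate 1 and 12 without BBP with PB replicate 3.

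In the list for phenylalanine and tyrosine breakdown other than by ammonia-lyase, 5 of 9 tested genes (55.6%) rose with BBP and PB against control and none fell, beside 19.9% higher and 21.2% lower among all tested genes. Its median log2 change was 1.23, against -0.04 over all tested genes. Against BBP alone, 5 of the 9 rose and 1 fell with BBP and PB (background 9.98% and 10.5%), with a median of 0.63. With BBP against control 2 rose and none fell (background 10.1% and 8.33%), with a median of 0.48. These counts were the same under library size scaling and with limma. The list holds 5 genes with the enzyme number of primary amine oxidases, 2 aromatic aminotransferases, 1 decarboxylase of aromatic amino acids and 1 homogentisate dioxygenase, so that only the last belongs to ring opening itself.

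PLEOSDRAFT_1107843, annotated as homogentisate dioxygenase, had 20.0, 29.6 and 23.2 FPKM with BBP and PB, 5.56, 8.17 and 4.61 FPKM with BBP, and 3.87, 4.59 and 4.81 FPKM in control. The BBP with PB libraries were far above the rest, and BBP and control overlapped. It rose with BBP and PB against control by 2.67 ± 0.22 on the log2 scale (edgeR adjusted p = 2.28e-05) and against BBP by 2.09 ± 0.22 (adjusted p = 0.000245). For BBP against control the change was 0.57 ± 0.21 (adjusted p = 0.0891), and without BBP replicate 3 it was 0.74 (adjusted p = 0.0477). Over the 9 libraries its log2(FPKM + 1) values had a Pearson r of 0.955 with those of PLEOSDRAFT_173727, a description over libraries that share treatment and depth.

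PLEOSDRAFT_1038696, an aromatic aminotransferase, which passes the amino group of aromatic amino acids to a keto acid, had 48.2, 58.4 and 50.0 FPKM with BBP and PB, 25.7, 28.7 and 30.3 FPKM with BBP, and 16.8, 13.7 and 12.0 FPKM in control. Its groups were ordered like those of PLEOSDRAFT_173727 and did not overlap, a trait whose share among all tested genes is not given here. It rose in each comparison, by 2.08 ± 0.18 for BBP with PB against control (adjusted p = 2.46e-05), by 0.99 ± 0.17 for BBP with PB against BBP (adjusted p = 0.00376) and by 1.09 ± 0.17 for BBP against control (adjusted p = 0.00326). The other aminotransferase, PLEOSDRAFT_1036482, had 5.62, 5.19 and 5.50 FPKM with BBP and PB, 10.5, 6.82 and 16.4 FPKM with BBP, and 6.93, 8.63 and 10.7 FPKM in control. It fell with BBP and PB against BBP (log2 change -0.95 ± 0.27, adjusted p = 0.0373), a call lost in 6 of the 9 fits that left out 1 library, where the adjusted p reached 0.0556 to 0.11. Those fits left out control replicate 2, BBP replicate 1 or 3, or any BBP with PB library.

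Copper amine oxidases turn primary amines into aldehydes and release ammonia. Of the 5 genes with their number, 3 rose with BBP and PB against both BBP and control. Among all tested genes, 9.98% were called higher against BBP and 19.9% against control. PLEOSDRAFT_38884 had 59.1, 64.2 and 67.0 FPKM with BBP and PB, 43.0, 45.5 and 43.4 FPKM with BBP, and 29.1, 31.2 and 33.5 FPKM in control. It stepped up between groups without overlap and rose in each comparison, by 1.23 ± 0.093 for BBP with PB against control (adjusted p = 1.16e-05), 0.63 ± 0.0915 for BBP with PB against BBP (adjusted p = 0.00141) and 0.60 ± 0.0915 for BBP against control (adjusted p = 0.00262). PLEOSDRAFT_1040945 had 8.07, 5.54 and 9.11 FPKM with BBP and PB, 1.19, 1.46 and 0.66 FPKM with BBP, and 1.42, 1.08 and 1.03 FPKM in control. It rose with BBP and PB by 2.88 ± 0.32 against both BBP (adjusted p = 0.000346) and control (adjusted p = 0.000123), and its log2 change for BBP against control was -0.001 (adjusted p = 0.998). PLEOSDRAFT_21891 has the same enzyme number but ontology terms of a transporter, and rose with BBP and PB by 1.57 ± 0.20 against control (adjusted p = 0.000236) and by 1.03 ± 0.19 against BBP (adjusted p = 0.00548). The calls for BBP with PB in this and the preceding 2 genes held in every fit that left out 1 library. The other 2 genes with this number, named here after their values were seen, passed in no comparison. PLEOSDRAFT_1038197 had 3.37 to 4.47 FPKM with BBP and PB, 4.33 to 8.39 FPKM with BBP and 4.44 to 7.28 FPKM in control, and its change of -0.70 for BBP with PB against BBP (edgeR adjusted p = 0.0694) passed with DESeq2 (0.0306) and without BBP replicate 2 (0.00832). PLEOSDRAFT_1030488 had 15.5 ± 1.48 FPKM with BBP and PB, 17.0 ± 2.56 FPKM with BBP and 17.9 ± 2.49 FPKM in control (SD, n = 3 each).

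The cinnamate branch downstream of phenylalanine ammonia-lyase was represented by 1 gene, PLEOSDRAFT_1093294, with the enzyme number of coumarate-CoA ligase. It had 68.3, 53.4 and 58.4 FPKM with BBP and PB, 77.8, 109 and 82.9 FPKM with BBP, and 49.5, 57.9 and 51.2 FPKM in control, so that BBP alone was highest. It rose with BBP against control by 0.87 ± 0.15 (adjusted p = 0.00473). With BBP and PB the change was -0.48 ± 0.15 against BBP, which narrowly missed the threshold (adjusted p = 0.05 after rounding), and 0.39 ± 0.15 against control (adjusted p = 0.0587). Over the alternatives for BBP with PB against BBP, 5 passed. These were library size scaling (adjusted p = 0.0237), DESeq2 (0.0259), limma (0.0234), and the fits without control replicate 3 (0.0417) or BBP with PB replicate 1 (0.0498). Between BBP with PB and control, leaving out BBP replicate 2 gave an adjusted p of 0.0243, DESeq2 gave 0.0419 and the 2 groups alone gave 0.0377. No gene of the table met the terms of the list for benzyl and benzoate oxidation. Only 1951 of the 10682 genes carry an enzyme number, so an empty or short list cannot be read as absence of the pathway.

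Among genes for the synthesis of aromatic amino acids, 1 of 19 tested genes rose and 5 fell with BBP and PB against control, and the median log2 change was -0.19. The 26.3% that fell stand beside 21.2% of all tested genes, and 10 fell under library size scaling. With BBP and PB against BBP 1 rose and none fell (background 9.98% and 10.5%), with a median of -0.15. With BBP against control 1 rose and 1 fell (background 10.1% and 8.33%), with a median of -0.10. PLEOSDRAFT_1094120, 1 of 3 genes with the number of DAHP synthase, the first enzyme of the shikimate pathway, had 30.9, 30.9 and 34.4 FPKM with BBP and PB, 64.5, 40.8 and 112 FPKM with BBP, and 633, 154 and 187 FPKM in control. The groups did not overlap, and the order was the reverse of that of PLEOSDRAFT_173727. It fell by 3.19 ± 0.59 on the log2 scale with BBP and PB against control (adjusted p = 0.00225), and by 2.13 without control replicate 1, its highest library. With BBP against control the change was -2.12 ± 0.57 (adjusted p = 0.0295), which became -1.06 without control replicate 1 and no longer passed when control replicate 1 (0.0586), BBP replicate 1 (0.0893) or BBP replicate 2 (0.0835) was left out. The 2 groups compared alone also lost this call (0.0782). Between BBP with PB and BBP the change was -1.07 ± 0.55 (adjusted p = 0.203). The adjusted p was 0.0374 without control replicate 1 and 0.0411 with the 2 groups alone. The other 2 DAHP synthase genes, named after their values were seen, passed in no comparison. PLEOSDRAFT_1048814 had 67.0 ± 4.15 FPKM with BBP and PB, 70.0 ± 7.28 FPKM with BBP and 59.9 ± 19.2 FPKM in control (SD, n = 3 each). PLEOSDRAFT_1062486 had 35.0 ± 5.21 FPKM with BBP and PB, 33.9 ± 3.29 FPKM with BBP and 33.9 ± 11.8 FPKM in control (SD, n = 3 each). Without control replicate 3 both passed as higher with BBP and PB than in control, by 0.63 (edgeR adjusted p = 0.00197) and 0.53 (0.0154), and PLEOSDRAFT_1048814 also passed as higher with BBP than in control, by 0.58 (0.00757).

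Of 2 genes with the number of anthranilate synthase, which opens the tryptophan branch, 1 fell with BBP and PB against control. PLEOSDRAFT_1056503 had 24.7, 22.2 and 20.5 FPKM with BBP and PB, 28.1, 31.7 and 26.4 FPKM with BBP, and 33.1, 36.1 and 44.1 FPKM in control (log2 change -0.53 ± 0.12, adjusted p = 0.00705). The other, PLEOSDRAFT_1073785, named after its values were seen, had 20.7 ± 1.04 FPKM with BBP and PB, 22.6 ± 2.65 FPKM with BBP and 27.6 ± 5.19 FPKM in control (SD, n = 3 each), and its change for BBP with PB against control was -0.19 (adjusted p = 0.237), or -0.42 under library size scaling (0.0468). The same comparison gave smaller and less stable calls for tryptophan synthase PLEOSDRAFT_60756 (-0.46 ± 0.13, adjusted p = 0.0156), for PLEOSDRAFT_171081, with 2 enzyme numbers of the middle of the shikimate pathway (-0.30 ± 0.093, adjusted p = 0.0249), and for chorismate synthase PLEOSDRAFT_1036017 (-0.59 ± 0.20, adjusted p = 0.04). The tryptophan synthase call was lost without BBP with PB replicate 2 (adjusted p = 0.0614) or 3 (0.0549). The call of PLEOSDRAFT_171081, 1 of 2 genes with its first number, was lost without control replicate 2 (0.0712) or any BBP with PB library (0.056 to 0.0943). The chorismate synthase call was lost without control replicate 3 (0.0996) or any BBP with PB library (0.064 to 0.122). PLEOSDRAFT_1107098, 1 of 6 tested genes with the number of anthranilate phosphoribosyltransferase, rose with BBP against control by 0.40 ± 0.11 (adjusted p = 0.0293), a call lost in 6 of the 9 fits that left out 1 library (adjusted p = 0.0504 to 0.0708): those without control replicate 1 or 3, BBP replicate 2 or 3, or BBP with PB replicate 2 or 3. It was also lost under library size scaling (0.136) and limma (0.125). PLEOSDRAFT_1078415, with the same number and named after its values were seen, rose with BBP and PB. Its change was 0.89 ± 0.18 against control (edgeR adjusted p = 0.00349) and 0.83 ± 0.18 against BBP (0.0108). Both calls held in every fit that left out 1 library, and no other gene with this number was called in either comparison.

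**Figure D3:**
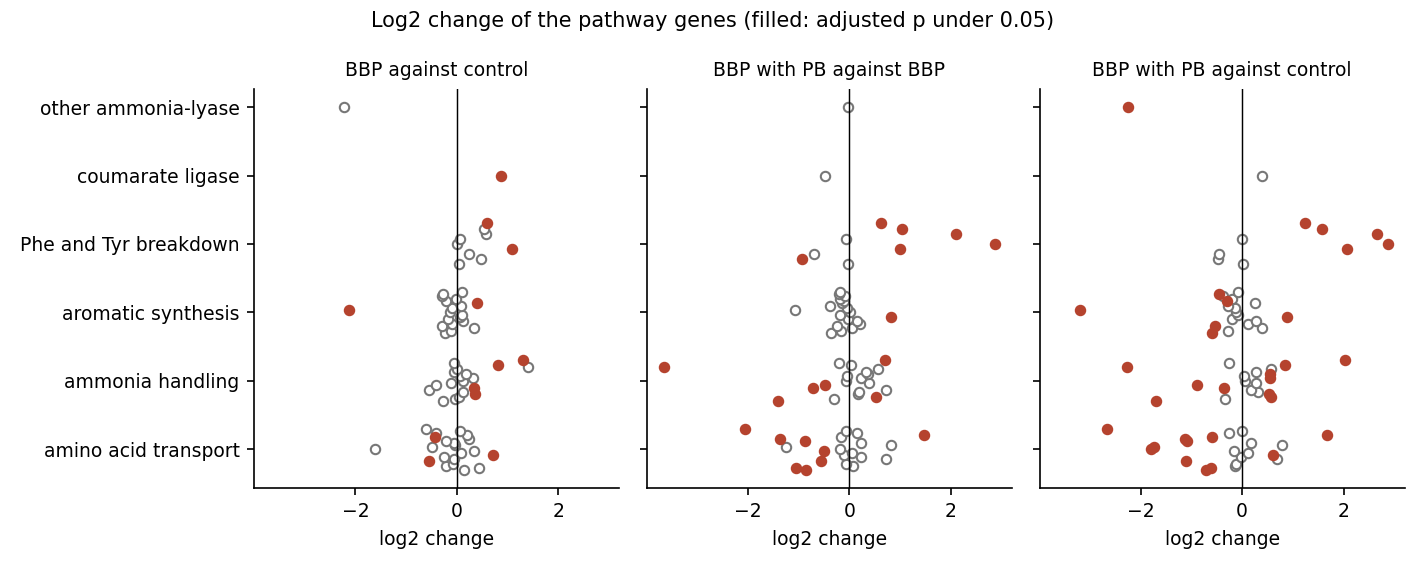
Log2 change of each tested gene in the lists around phenylalanine metabolism, by list (rows) and comparison (panels), with filled points for an adjusted p under 0.05 and PLEOSDRAFT_173727 left out. In the breakdown list 5 of 9 genes are filled to the right of 0 in the panel of BBP with PB against control. In the amino acid transport row of that panel 9 of 21 genes are filled to the left of 0, 2 of them with an enzyme number of another function.

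Ammonia is the second product of the ammonia-lyase reaction, and 19 of 20 genes for its uptake and release were tested. With BBP and PB against control 6 rose and 4 fell (31.6% and 21.1%, background 19.9% and 21.2%), and the median log2 change was 0.27. Under library size scaling 2 rose and 4 fell, with a median of 0.05, and with limma 1 rose and 5 fell. Against BBP 2 rose and 4 fell (background 9.98% and 10.5%), with a median of 0.17. With BBP against control 4 rose and none fell (background 10.1% and 8.33%), with a median of 0.07, while under library size scaling 1 rose and the median was -0.05.

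PLEOSDRAFT_40761, an NAD-dependent glutamate dehydrogenase, which links glutamate to ammonia and a keto acid, had 431, 332 and 332 FPKM with BBP and PB, 197, 259 and 266 FPKM with BBP, and 123, 97.3 and 88.8 FPKM in control. Its groups had the order of PLEOSDRAFT_173727 without overlap. It rose by 2.02 ± 0.21 with BBP and PB against control (adjusted p = 8.59e-05) and by 1.32 ± 0.21 with BBP against control (adjusted p = 0.00312). The change of 0.71 ± 0.20 for BBP with PB against BBP (adjusted p = 0.0365) was a call lost without control replicate 2, BBP replicate 1 or 3, or any BBP with PB library (adjusted p = 0.0503 to 0.132), and it was also lost with the replicate number as a block (adjusted p = 0.0662).

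Of 10 tested genes with the number of an amidase, which splits amides to release ammonia, 2 rose and 3 fell with BBP and PB against control. Among all tested genes 19.9% were called higher and 21.2% lower in this comparison. PLEOSDRAFT_162326 had 3.22, 7.16 and 6.99 FPKM with BBP and PB, 77.4, 23.4 and 135 FPKM with BBP, and 37.6, 30.3 and 27.3 FPKM in control. It fell with BBP and PB by 3.67 ± 0.58 against BBP (adjusted p = 0.0023) and by 2.26 ± 0.55 against control (adjusted p = 0.00904), while BBP and control overlapped (log2 change 1.40 ± 0.52, adjusted p = 0.0883, and 0.0108 without BBP replicate 2). A second amidase, PLEOSDRAFT_1068698, fell to 53.1 ± 2.67 FPKM with BBP and PB, against 93.7 ± 3.68 FPKM with BBP and 79.3 ± 5.00 FPKM in control (SD, n = 3 each; adjusted p = 0.000756 against BBP and 0.00986 against control). Its rise with BBP against control (log2 change 0.35, adjusted p = 0.0274) was lost without control replicate 2 (0.0791), BBP replicate 1 (0.0726) or 3 (0.0733), or BBP with PB replicate 2 (0.0551) or 3 (0.052). It was also lost under library size scaling (0.133) and limma (0.116). The other amidase genes called with BBP and PB against control, named after their values were seen, went both ways. PLEOSDRAFT_1032663 had a log2 change of -1.69 ± 0.40 (edgeR adjusted p = 0.00745). PLEOSDRAFT_1092424 rose by 0.55 ± 0.14 (0.01) and PLEOSDRAFT_174865 by 0.84 ± 0.24 (0.0188), and neither passed under library size scaling or with limma. PLEOSDRAFT_174865 also failed without control replicate 1 or 2.

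PLEOSDRAFT_1073506, an asparagine synthase, which stores nitrogen as asparagine, fell to 25.3 ± 0.36 FPKM with BBP and PB, against 55.1 ± 16.5 FPKM in control (SD, n = 3 each; log2 change -0.90 ± 0.15, adjusted p = 0.00145). Against BBP, at 38.1 ± 1.75 FPKM, its change was -0.48 (adjusted p = 0.0498), a call lost without any one library other than control replicate 1 or 3 (adjusted p = 0.066 to 0.138). Urease, PLEOSDRAFT_1058849, rose to 22.4 ± 0.33 FPKM with BBP and PB, against 16.8 ± 1.63 FPKM with BBP and 17.5 ± 2.40 FPKM in control (SD, n = 3 each; adjusted p = 0.0108 and 0.00314), and both calls were lost with limma on log2(FPKM + 1) (0.0577 and 0.0512). PLEOSDRAFT_1059795, 1 of 3 genes with the number of glutamine synthetase, had 17.6 ± 0.674 FPKM with BBP and PB, 16.9 ± 0.997 FPKM with BBP and 14.2 ± 1.96 FPKM in control (SD, n = 3 each). It rose with BBP and PB against control by 0.53 ± 0.11 (adjusted p = 0.00456), a call lost under library size scaling (0.074) and limma (0.0779). Its change of 0.36 for BBP against control (adjusted p = 0.0497) was lost without any one library other than control replicate 3 (adjusted p = 0.0632 to 0.147), and under library size scaling (0.197) and limma (0.21). The other 2, named after their values were seen, passed in no comparison. PLEOSDRAFT_1089099, by far the most abundant of the 3, had 1260 ± 43.5 FPKM with BBP and PB, 1424 ± 260.3 FPKM with BBP and 1391 ± 56.4 FPKM in control (SD, n = 3 each), with a log2 change of 0.06 ± 0.15 for BBP with PB against control (adjusted p = 0.765). Only the fit uses TMM factors, so the sign of its change can differ from that of the FPKM means. PLEOSDRAFT_1080674 had 24.8 ± 1.98 FPKM with BBP and PB, 20.4 ± 3.18 FPKM with BBP and 23.8 ± 1.26 FPKM in control (SD, n = 3 each), and its change of 0.39 for BBP with PB against BBP (edgeR adjusted p = 0.0636) passed with DESeq2 (0.0495) and without BBP replicate 2 (0.0267).

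The list found by words for amino acid transport had 21 tested genes out of 22. With BBP and PB against control 2 rose and 9 fell (background 19.9% and 21.2%), and against BBP 1 rose and 7 fell (background 9.98% and 10.5%), with median log2 changes of -0.17 and -0.11. With BBP against control 1 rose and 2 fell, with a median of -0.05, and the 9.52% that fell lay near the 8.33% of all tested genes. The list is not one of transporters alone, since 3 of its tested genes carry an enzyme number of another function: PLEOSDRAFT_60937 and PLEOSDRAFT_1100226 that of a phosphatidylinositol kinase, and PLEOSDRAFT_1061763 that of an acid anhydride hydrolase. Both kinase genes, named after their values were seen, are among the 9 that fell, with log2 changes of -2.66 (edgeR adjusted p = 7.21e-05) and -1.74 (0.00789), and PLEOSDRAFT_60937 is among the 7. Of the 18 tested genes with no enzyme number, 2 rose and 7 fell with BBP and PB against control, 1 rose and 6 fell against BBP, and 1 rose and 2 fell with BBP against control. PLEOSDRAFT_46632, an amino acid transporter of the plasma membrane by its ontology terms, went the other way, with 44.5, 48.9 and 44.3 FPKM with BBP and PB, 15.8, 20.1 and 17.7 FPKM with BBP, and 14.0, 21.1 and 15.0 FPKM in control. The BBP with PB libraries stood alone and BBP overlapped control. It rose by 1.47 ± 0.15 against BBP (adjusted p = 0.000218) and by 1.67 ± 0.15 against control (adjusted p = 3.36e-05).

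PLEOSDRAFT_1057045, with similar terms, fell with BBP and PB against BBP, with 39.9, 29.7 and 34.7 FPKM against 77.8, 78.7 and 76.3 FPKM (log2 change -1.05 ± 0.19, adjusted p = 0.00445). In control it had 41.9, 61.0 and 83.6 FPKM, and the call for BBP with PB against control (adjusted p = 0.0263) was lost without control replicate 2 (0.0531) or 3 (0.0669) or BBP with PB replicate 2 (0.0931) or 3 (0.0778). Another 2 of the abundant transporters fell with BBP and PB against control in every fit that left out 1 library: PLEOSDRAFT_1114159 to 26.1 ± 2.69 FPKM, against 64.8 ± 13.8 FPKM in control (adjusted p = 0.00738), and PLEOSDRAFT_27955 to 28.1 ± 2.37 FPKM, against 49.5 ± 9.96 FPKM in control (adjusted p = 0.0038; SD, n = 3 each). PLEOSDRAFT_1092209, the most expressed transporter named, had 289 ± 15.5 FPKM with BBP and PB, against 438 ± 45.9 FPKM with BBP (SD, n = 3 each; adjusted p = 0.0364, lost without BBP replicate 1 or 3 or any BBP with PB library, 0.0773 to 0.123).

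A vacuolar transporter of basic amino acids, PLEOSDRAFT_1092848, had control levels of 385, 157 and 90.4 FPKM, in the same order over the control replicates as PLEOSDRAFT_1112899. It had 77.9, 42.0 and 43.3 FPKM with BBP and PB and 57.1, 51.7 and 91.9 FPKM with BBP. Its fall with BBP and PB against control (log2 change -1.80 ± 0.53, adjusted p = 0.0207) was lost without control replicate 1 (0.0739) or BBP with PB replicate 2 (0.0754) or 3 (0.0771).

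A wider list, the 34 other genes that the table places in the KEGG map of phenylalanine metabolism, overlaps the lists above and had 33 tested members. With BBP and PB against control 10 rose and 5 fell (30.3% and 15.2%, background 19.9% and 21.2%), and the median log2 change was 0.11. Under library size scaling 8 rose and 7 fell, with a median of -0.12, and with limma 8 rose and 6 fell, with a median of -0.10. Against BBP 6 rose and 6 fell (background 9.98% and 10.5%), with a median of 0.02 that became -0.08 under either of these. With BBP against control 7 rose and none fell (background 10.1% and 8.33%), with a median of 0.07, against 4 and none with medians of -0.04 and -0.03 under library size scaling and limma. The most abundant called member, PLEOSDRAFT_1045544, has the enzyme number of an aldehyde dehydrogenase and ontology terms of a glyoxalase. It fell to 783 ± 101 FPKM with BBP and PB, against 1549 ± 315 FPKM with BBP and 1655 ± 94.4 FPKM in control (SD, n = 3 each; adjusted p = 0.00504 and 0.0023). PLEOSDRAFT_1035376, with the same annotation, rose to 163 ± 20.2 FPKM with BBP and PB, against 65.4 ± 11.8 FPKM with BBP and 80.2 ± 3.57 FPKM in control (adjusted p = 0.000246 and 0.000192). Aspartate aminotransferase PLEOSDRAFT_1052049 and PLEOSDRAFT_21661, with the number of a tautomerase, rose with BBP and PB against control by 0.77 ± 0.13 (adjusted p = 0.00155) and 0.93 ± 0.16 (adjusted p = 0.00133).

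The genes most like PLEOSDRAFT_173727 were sought by the root mean square (RMS) difference between log2(FPKM + 1) values over the 9 libraries, each gene centred on its own mean. They were picked for following the gene, so their values are a description with no test. The nearest was PLEOSDRAFT_1108860, an aldehyde dehydrogenase, an enzyme class that oxidises aldehydes to acids, with an RMS difference of 0.271 and a Pearson r of 0.992. It had 101, 116 and 120 FPKM with BBP and PB, 17.5, 42.6 and 17.1 FPKM with BBP, and 9.59, 8.73 and 11.6 FPKM in control. BBP replicate 2 was the high BBP library here too.

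PLEOSDRAFT_1095758, with the enzyme number of a sphingomyelin phosphodiesterase, followed at an RMS difference of 0.275, with 108, 104 and 124 FPKM with BBP and PB, 19.1, 46.4 and 11.4 FPKM with BBP, and 11.4, 8.38 and 11.0 FPKM in control. Next came 2 genes with ontology terms of a heme monooxygenase and enzyme numbers of the P450 class, which insert oxygen into organic compounds. PLEOSDRAFT_50083, at an RMS difference of 0.277, had 144, 136 and 165 FPKM with BBP and PB, 21.5, 33.6 and 19.6 FPKM with BBP, and 11.6, 12.4 and 12.0 FPKM in control. PLEOSDRAFT_1048809, at 0.345, had 376, 395 and 399.6 FPKM with BBP and PB, 79.6, 128 and 82.9 FPKM with BBP, and 35.3, 39.2 and 33.7 FPKM in control, levels close to those of PLEOSDRAFT_173727 itself. In both genes BBP replicate 2 was again the highest BBP library and no groups overlapped.

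The other 4 were PLEOSDRAFT_1095540, which has no annotation (RMS difference 0.422), PLEOSDRAFT_1073531, a water channel by its terms (0.430), PLEOSDRAFT_154709, an oxidoreductase (0.455), and PLEOSDRAFT_1111192, assigned only to the endoplasmic reticulum (0.469). PLEOSDRAFT_1073531 had 386, 407 and 367 FPKM with BBP and PB, 87.5, 116 and 88.4 FPKM with BBP, and 33.1, 23.3 and 25.8 FPKM in control. The first 3 of the 8 genes stayed among the nearest 8 under each of 13 other settings, and the last 2 under 6 and 3. Homogentisate dioxygenase PLEOSDRAFT_1107843 ranked 51st by this measure, at 0.742, and PLEOSDRAFT_1112899 ranked 9217th of 9399, at 2.55 with a Pearson r of -0.487.

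**Figure D4:**
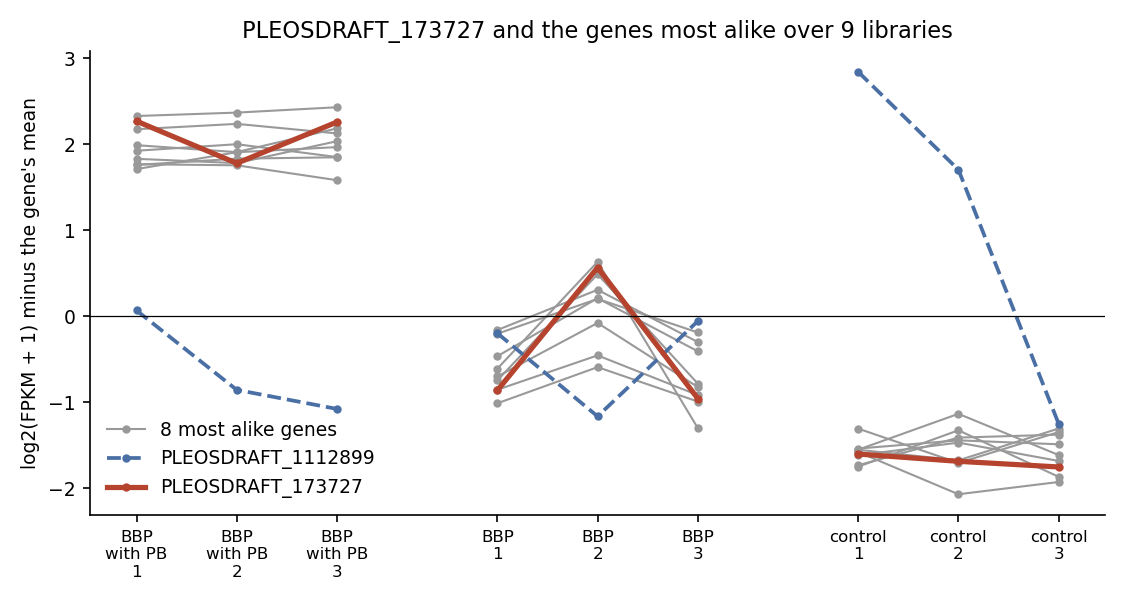
Log2(FPKM + 1) minus each gene's mean over the 9 libraries for PLEOSDRAFT_173727 (red), the 8 genes with the smallest RMS difference from it (grey) and PLEOSDRAFT_1112899 (dashed blue). The grey lines, chosen for likeness, run with the red line, and the dashed line lies high in control replicates 1 and 2 and low in control replicate 3.

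The nearest genes on the scaffold did not share the pattern as a block. PLEOSDRAFT_1056583 ends 149 bp before PLEOSDRAFT_173727 and has terms of a zinc transporter but the enzyme number of a xylulokinase. It had 37.3, 46.6 and 49.4 FPKM with BBP and PB, 69.6, 66.5 and 65.0 FPKM with BBP, and 57.9, 61.5 and 63.2 FPKM in control. It was lowest where PLEOSDRAFT_173727 was highest, and fell with BBP and PB against BBP by 0.49 ± 0.11 (adjusted p = 0.0132), which no longer passed when BBP replicate 1 was left out (0.0518). Against control its change was -0.25 ± 0.11 (adjusted p = 0.102), and it passed when library size was the sole scaling (0.012) and with limma (0.0112).

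On the other side, PLEOSDRAFT_1042547, which has no annotation and begins 1354 bp away, had 28.0, 31.1 and 31.1 FPKM with BBP and PB, 23.8, 25.3 and 22.4 FPKM with BBP, and 18.4, 18.9 and 22.2 FPKM in control. It rose with BBP and PB against control by 0.81 ± 0.10 (adjusted p = 0.000238), far less than the log2 change of 4.05 of PLEOSDRAFT_173727. The smaller change against BBP, 0.44 ± 0.10 (adjusted p = 0.0137), was lost without BBP with PB replicate 2 (0.0571) or 3 (0.0574), and under library size scaling (0.0736) and limma (0.0816). For BBP against control it was 0.37 ± 0.10 (adjusted p = 0.0321), lost in 6 of the 9 fits that left out 1 library (0.0569 to 0.101): those without control replicate 1 or 2, BBP replicate 1 or 2, or BBP with PB replicate 2 or 3. Library size scaling (0.146) and limma (0.16) also lost this call.

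Of the remaining 6 neighbours, PLEOSDRAFT_1104751, at 2106 bp, has ontology terms of an oxidoreductase but the enzyme number of a CoA-transferase. It had the same order of groups as PLEOSDRAFT_173727, with 66.4, 71.6 and 69.1 FPKM with BBP and PB, 50.6, 56.8 and 50.0 FPKM with BBP, and 27.6, 25.7 and 19.8 FPKM in control. It rose by 1.70 ± 0.16 with BBP and PB against control (adjusted p = 4.13e-05) and by 1.20 ± 0.15 with BBP against control (adjusted p = 0.00135). Against BBP the change with BBP and PB was 0.50 ± 0.15 (adjusted p = 0.0447), lost without control replicate 2, BBP replicate 1 or 3, or any BBP with PB library (0.0645 to 0.131). Library size scaling (0.0648), limma (0.0608), no filter on low values (0.0535) and the replicate block (0.0563) also lost it. PLEOSDRAFT_1112852, with no annotation at 8805 bp, had 89.3, 85.4 and 87.0 FPKM with BBP and PB, 52.8, 44.7 and 43.2 FPKM with BBP, and 51.0, 55.4 and 43.4 FPKM in control. It rose with BBP and PB by 1.00 ± 0.13 against BBP (adjusted p = 0.0009) and 1.01 ± 0.13 against control (adjusted p = 0.00032).

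PLEOSDRAFT_1010550, an RNA helicase by its terms, was called with BBP and PB against control (log2 change 1.06 ± 0.33, adjusted p = 0.0256) but not when leaving out control replicate 1 (0.077) or 2 (0.0685) or BBP with PB replicate 2 (0.0731) or 3 (0.109). Nor was it called under library size scaling (0.0705) or with limma (0.0924). PLEOSDRAFT_1083952, PLEOSDRAFT_1040728 and PLEOSDRAFT_1065388, with terms of a flavin reductase, an exchange factor of Golgi traffic and a TFIIH subunit, passed in no comparison. Without control replicate 3, PLEOSDRAFT_1040728 passed for BBP against control (log2 change -0.33, adjusted p = 0.0375).

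**Figure D5:**
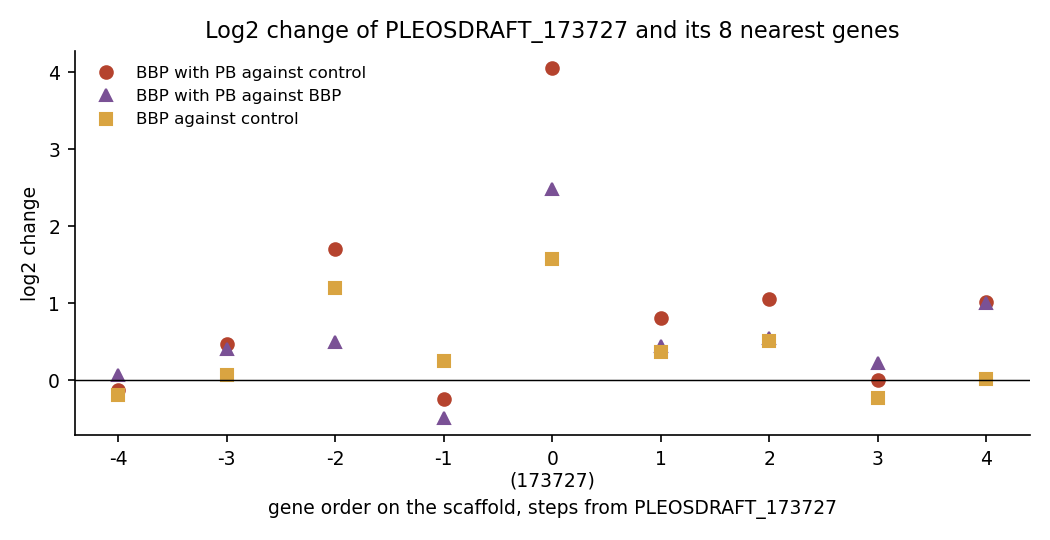
Log2 change in the 3 comparisons of PLEOSDRAFT_173727 (position 0) and the 4 genes on each side in their order on the scaffold. PLEOSDRAFT_173727 stands at 4.05, 2.48 and 1.57, and the largest change among the neighbours is the 1.70 of PLEOSDRAFT_1104751 for BBP with PB against control.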

How the data were processed

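RNA sequencing libraries of 9 cultures in 3 groups were used. The tools that the submitters' processing notes list are fastp, HISAT2 and StringTie; their versions, the build, the counting tool and its strand setting were not found there or in the labels. The deposited table holds raw read counts per gene made by the authors. The authors also deposited FPKM values beside them, and every per-sample column was matched to a sample by name.

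The members and gene lists were chosen with earlier results of these data known, and the KEGG list was added after the annotation columns were read. Genes with a mean of at least 1 FPKM were kept (9399 of 10682). After TMM scaling, all 9 libraries entered 1 edgeR model of 3 groups (edgeR 4.0.16, R 4.3.3), with the quasi-likelihood test, Benjamini-Hochberg adjustment over all tested genes, 2-sided, called under 0.05. The common biological coefficient of variation was 0.201. The code was tested on simulated counts. Alternatives were library size or median-of-ratios scaling, DESeq2 1.42.0, limma 3.58.1 on log2(FPKM + 1), no filter, the 2 compared groups alone, the replicate number as a block, and each library left out in turn. No pair of same-group libraries agreed within sampling noise, with chi-square values of 43.1 to 354.7 per degree of freedom.

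Genes were named by a rule: the ammonia-lyases of the phenylalanine and histidine kind, up to 6 called genes per other list by mean FPKM, the 8 genes most alike and the 4 neighbours on each side. Product names are annotations, and the enzyme numbers and ontology terms of some genes differ. No identifier matched the reference table of assembly ASM1446616v1 (0 matched), so it was not used and no sequence is shown.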

Additional observations from a re-analysis of the deposited data

How the results depend on the processing

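PLEOSDRAFT_173727 kept its direction in every comparison under every alternative run. Its groups do not overlap, so leaving out 1 library could not reverse a direction. The gene was also chosen by its pattern in these libraries, so this is no support for the pattern. Its log2 change ranged over the fits that left out 1 library from 0.89 to 1.83 (BBP against control), 2.22 to 3.158 (BBP with PB against BBP) and 3.96 to 4.18 (BBP with PB against control). The replicate numbers did not pair the libraries: same-numbered libraries deviated together with correlations from -0.15 to 0.21, and 2 of 9 were over 0.1. With the replicate number as a block the 3 changes were 1.480, 2.595 and 4.075, and 1396, 1568 and 3612 genes were called, against 1730, 1921 and 3865 without it. Scaled by library size alone, the median log2 change of all tested genes moved to -0.11, -0.12 and -0.26, from -0.01, -0.01 and -0.04, and calls split as 684 higher and 1108 lower for BBP against control (947 and 783 with TMM), 621 and 1327 in BBP with PB against BBP (938 and 983), and 1196 and 3183 for BBP with PB against control (1871 and 1994). With limma on log2(FPKM + 1) the splits were 657 and 1050, 653 and 1230, and 1248 and 3061.

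For BBP against control, calls over all genes were 879 with the 2 groups alone and 967 to 1854 with 1 library left out. The 12 pathway calls became 7 with limma, 4 with the 2 groups alone and 6 to 16 with 1 library left out. For BBP with PB against BBP, leaving out 1 library gave 1051 to 2461 genes and 12 to 24 pathway genes. In BBP with PB against control it gave 2877 to 4169 and 23 to 34. Ranking likeness by Pearson r shared 3 of the 8 genes. Changes that were not called reversed for PLEOSDRAFT_1112899 in BBP with PB against BBP without BBP replicate 1 (0.082) or 3 (0.188) or BBP with PB replicate 2 (0.111) or 3 (0.191), with values down to -0.476 without BBP with PB replicate 1, and for PLEOSDRAFT_1036017 in BBP against control without control replicate 3 (0.055), against -0.360 without control replicate 1. The cause of these shifts was not tested. Of the calls of named genes, 12 of 21, 21 of 29 and 31 of 38 were kept in every fit that left out 1 library. These counts include the 8 genes picked for following PLEOSDRAFT_173727, which were called in every comparison and nearly all kept. The counts are therefore no measure of how stable the calls of the other named genes are.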
